A study of Mus musculus with 6 samples.

Results

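The genes of the cytosolic ribosomal proteins were followed through an ATACseq series on GL261, a mouse glioma line that stably carried the plasmid pEGFP-N1 in every group. ATACseq cuts open chromatin with a transposase, and more fragments over a region mean a more accessible region. The cells were kept at 21% O2, or for 16 h at 1% O2 (moderate hypoxia) or <0.1% O2 (severe hypoxia), and were fixed with formaldehyde before lysis. There were 2 libraries per condition and 6 in all, and as nothing says that the replicates came from separate cultures, their spread may be technical. The members were the protein-coding genes of GENCODE M21 with a symbol of Rpl or Rps plus a digit, together with Rplp0, Rplp1, Rplp2 and Rpsa and without the Rps6k kinases, which made 86 of 21938 protein-coding genes. The rule itself uses names only and no measured value. The name rule also took in paralogs of restricted expression and Rps19bp1, which binds a ribosomal protein and is not one itself.

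Each ribosome is built from a large subunit (60S), which joins amino acids, and a small subunit (40S), which reads the mRNA. Their proteins are made in near equal numbers from genes scattered over the genome, and most of these genes have GC-rich promoters in constant use in growing cells. Transcription of many starts with a C inside a run of pyrimidines (C or T), which becomes the 5′ terminal oligopyrimidine (TOP) tract of the mRNA, the element through which mTORC1 controls its translation. Making ribosomes costs much of a growing cell's energy, and translation is known to be lowered in hypoxia.

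To show what these promoters look like, RefSeq promoters (GRCm38.p6) were matched by symbol, from 250 bases before to 50 after the start, for 61 of the 81 members with a peak in every library. Of these, 15 (24.6%) had a run of at least 5 pyrimidines from the annotated RefSeq start, against 4.09% of 9077 protein-coding promoters. That start was a C in 34.4% of members and in 14.7% of all promoters. It is an annotated base, not a measured one, and for Rpl18 it lay 2614 bp from the nearest GENCODE start in the peak. A run that begins a few bases off it is not counted. The letters CCGGAAG, which ETS factors such as GABPA recognise, were found on either strand in 24 members (39.3%) and in 1815 of all 9077 promoters. For YY1, the letters AAGATGG were found in 9 members (14.8%) and in 7.70% of all. A second form of the YY1 letters, GATGGCG, overlaps the first by 5 letters and was in 8.20% of members and 7.25% of all, so that either form was in 10 members (16.4%) and 11.1% of all. The NRF1 letters GCATGCG were in 6.56% of members and 7.11% of all, and the NF-Y letters CCAAT in 31.1% and 39.2%. The TATA box, searched as TATAAA, was in 9.84% of members and 6.19% of all, and the E-box CACGTG in 8.20% and 10.5%. ACGTG, the core of the hypoxia response element and part of that E-box, was in 29.5% of members and 26.6% of all promoters. A match is only a description of letters. The 7 promoters printed next, 80 bases before and 20 from the start, were taken from genes described further on: Rps18 at chr17:33955646-33955745 (minus strand), Rpl38 at chr11:114668500-114668599 (plus strand) and Rps6 at chr4:86857348-86857447 (minus strand) for their pyrimidine run at the start, Rpl11 at chr4:136053374-136053473 (minus strand) for ETS letters just past the start, Rpl34 at chr3:130730379-130730478 (minus strand) for YY1 letters upstream, and Rpl22l1 at chr3:28805428-28805527 (plus strand) and Rps9 at chr7:3703961-3704060 (plus strand) for having none of these. Capitals mark the ETS, YY1 and NRF1 letters on either strand and pyrimidine runs of at least 5 from the start. Pyrimidines also lie just after the annotated start of Rpl22l1 and across that of Rps9, and were not counted as runs.
Rps18: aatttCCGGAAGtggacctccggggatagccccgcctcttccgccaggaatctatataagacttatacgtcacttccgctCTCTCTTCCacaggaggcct
Rpl38: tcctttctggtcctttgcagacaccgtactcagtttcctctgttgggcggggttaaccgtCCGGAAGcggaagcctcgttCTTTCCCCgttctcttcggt
Rps6: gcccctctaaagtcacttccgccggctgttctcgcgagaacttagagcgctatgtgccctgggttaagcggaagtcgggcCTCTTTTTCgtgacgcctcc
Rpl11: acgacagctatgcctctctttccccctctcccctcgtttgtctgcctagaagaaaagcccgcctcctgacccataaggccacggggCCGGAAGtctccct
Rpl34: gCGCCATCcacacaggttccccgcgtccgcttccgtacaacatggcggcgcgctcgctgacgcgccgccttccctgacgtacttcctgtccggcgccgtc
Rpl22l1: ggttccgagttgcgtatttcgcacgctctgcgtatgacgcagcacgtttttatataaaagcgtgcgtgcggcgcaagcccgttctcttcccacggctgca
Rps9: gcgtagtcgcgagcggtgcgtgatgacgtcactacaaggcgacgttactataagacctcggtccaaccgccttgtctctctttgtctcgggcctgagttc

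The deposited files were peak lists of 33006 to 43554 peaks per library, and from the fold and p-value of each peak the fragment pileup at its summit and its local background were recovered. Mean fragment coverage of the genome ranged from 2.16 to 2.36 in the normoxic libraries and from 2.93 to 3.35 in the hypoxic ones, which were thus the deeper. Rankings of 2 kinds were used, each as a percentile within the library among 28432 merged peaks that every library held: the fold rank, from the fold enrichment over local background, and the pileup rank, from the summit pileup. A gene was represented by the peak nearest to a start site, within 2000 bp. It was called lower (or higher) when both libraries of a condition lay below (or above) both libraries of the other and the mean rank differed by at least 10 percentile points. "Fell" and "rose" are used for called genes only. The smallest two-sided p that an exact permutation test of 2 libraries against 2 allows is 0.33. No p-value is therefore given, and the share of all protein-coding genes called by the same rule is set beside the counts. All 6 glioma markers (Sox2, Nes, Vim, Cd44, Olig2 and Gfap) had a promoter peak in every library. Of 7 markers of other cells, Ptprc, Cdh5, Epcam and Rbfox3 had none in any library, Krt8 had one in all 6, Pecam1 in 5 and Cd68 in 1.

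Nearly all members had an open promoter at every oxygen level. A peak within 2000 bp of a start was found for 82 of the 86 (95.3%) in both normoxic libraries and for 83 (96.5%) in all 4 hypoxic libraries, against 54.7% to 56.9% of all protein-coding genes. Of the genes of mitochondrial ribosomal proteins, 98.7% to 100% had one, so this openness is not particular to the members. In 81 members the peak nearest the start was present in all 6 libraries and could be ranked, made up of 45 proteins of the 60S subunit, 31 of the 40S subunit and 5 paralogs or others. All 81 peaks contained a start site, as did 93.8% of the peaks of the 11538 protein-coding genes ranked. The summit lay within 200 bp of the start in 68 of the 81, at a median of 79 bp upstream (-79.0 bp). The peaks had a median GC content of 58.1%, against 60.9% over all protein-coding genes, and 30 (37.0%) also held the start of another gene, against 3466 of the 11538. Small nucleolar RNAs, which guide the modification of ribosomal RNA, lay within 29 of the 81 genes (35.8%, 57 such RNAs), against 1.85% of all.

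The 5 members that could not be ranked were named by the same rule. Rpl13, a 60S protein, had a start peak at chr8:123102254-123102761 in 5 libraries, with summit pileups of 88 and 108 fragments at 21% O2, 108 and 95 at 1% O2 and 82 in the first <0.1% O2 library, and no peak there in the second. A second peak of Rpl13, 1596 bp from the start, was missing only from the first 21% O2 library and held 73 fragments in the other normoxic one, 77 and 74 at 1% O2, then 117 and 81 at <0.1% O2. Rpl3l, the striated-muscle form of Rpl3, had a peak at an annotated start other than its first (chr17:24732358-24732770), listed in the 4 hypoxic libraries and in neither normoxic one, of 103 and 83 fragments at 1% O2, then 65 and 53 at <0.1% O2. No peak was listed near Rpl10l, which serves male germ cells, Rpl39l or Rps27rt in any library.

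By height, the ribosomal protein promoters stood lower among the open regions of the hypoxic libraries than of the normoxic ones. Their median pileup rank was 73.9 and 75.8 at 21% O2, 63.6 and 66.2 at 1% O2, then 58.3 and 56.5 at <0.1% O2, with no overlap between conditions. Over all protein-coding genes the median was 70.0 in both normoxic libraries, 69.3 and 68.5 at 1% O2, then 61.9 and 63.2 at <0.1% O2. At 1% O2, 38 of the 81 fell in pileup rank and 0 rose, where the same rule called 16.2% of protein-coding genes lower and 10.1% higher. At <0.1% O2, 53 fell and 0 rose, against 34.9% and 6.82%. The median change of the members was -9.64 points at 1% O2 and -16.8 at <0.1% O2, and that of all protein-coding genes -0.434 and -5.07. These 2 comparisons share the normoxic libraries. Between <0.1% and 1% O2, 28 members were lower and 1, Rpl29, higher, against 24.4% and 1.35%, and the median change was -6.93 points against -4.32. After correction for GC content, 13 were lower and 1 higher in that last comparison, against 11.2% and 2.15%. When ranks were taken within the whole peak list of each library, 7 members were lower and 1 higher at 1% O2, where 3.26% of protein-coding genes were lower and 18.4% higher, and 37 were lower and 0 higher at <0.1% O2, where 17.8% were lower and 11.3% higher. Between <0.1% and 1% O2, 18 of the 81 were lower on that ranking, a share near the 19.5% of protein-coding genes. On that ranking the falls at 1% O2 of Rplp1, Rpl5, Rpl11, Rpl12, Rpl30, Rpl32, Rpl34, Rpl38, Rpsa, Rps6, Rps9 and Rps14, described further on, were not called (-4.24 to -9.44 points), nor those at <0.1% O2 of Rpl11, Rpl26, Rpl38, Rps9, Rps14 and Rps18 (-6.22 to -8.84).

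**Figure D1:**
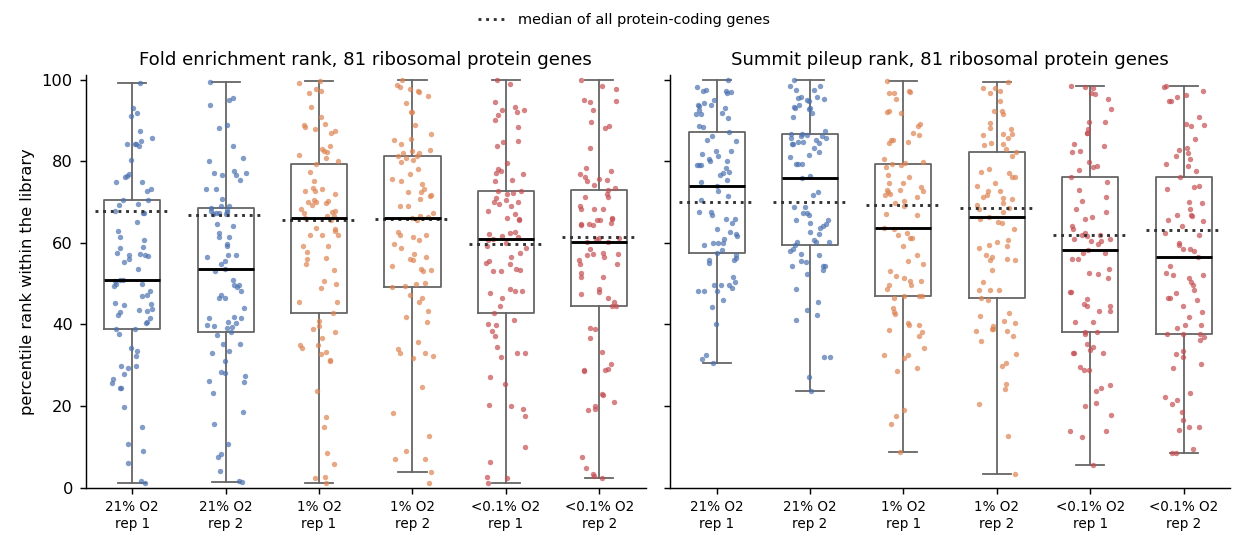
Percentile rank (0 to 100, y axis) of the promoter peaks of 81 ribosomal protein genes in each of the 6 libraries (x axis), by fold enrichment on the left and by summit pileup on the right. Points are genes, boxes show the median and quartiles, whiskers reach the last point within 1.5 box lengths, and dotted lines mark the median of 11538 protein-coding genes. The median pileup rank stepped down from 73.9 and 75.8 to 58.3 and 56.5, while the median fold rank was lowest in the normoxic libraries, at 51.0 and 53.6.

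By fold enrichment over local background, more of the same promoters were higher than lower in hypoxia. Their median fold rank was 51.0 and 53.6 at 21% O2, 66.0 and 66.1 at 1% O2, then 61.0 and 60.3 at <0.1% O2, and that of all protein-coding genes 67.9 and 66.7, 65.6 and 65.9, and 59.8 and 61.4. In the normoxic libraries the members thus stood well below the typical protein-coding promoter, and in the hypoxic ones close to it. At 1% O2, 28 members rose and 3 fell (Rpl11, Rpl30 and Rplp2, the last not without the first normoxic or the first 1% O2 library, at -6.90 and -9.19, and neither Rpl30 nor Rplp2 on whole-list ranks, at -7.94 and -4.05), where 10.7% of protein-coding genes were called higher and 16.2% lower. At <0.1% O2, 21 rose and 7 fell, against 9.93% and 28.6%. Without the first <0.1% O2 library 12 fell there. On whole-list ranks 27 rose and 2 fell at <0.1% O2, against 13.7% and 18.6%. The median change was 7.26 points at 1% O2 and 3.23 at <0.1% O2, against -1.05 and -3.34 over all protein-coding genes. From 1% to <0.1% O2, 21 were lower and 10 higher, against 22.3% and 7.46%, with a median change of -3.51 points against -2.36. When the -log10 q-value was ranked in place of the fold, which weighs height as well as enrichment, the split turned to 22 lower and 2 higher at 1% O2 and to 44 lower and 1 higher at <0.1% O2, beside 16.3% and 10.5%, and 35.1% and 7.01%, of protein-coding genes. On that ranking the rises described further on were not called for Rpl26 (0.339), Rps3 (1.19), Rpl29 (0.809) and Rps18 (5.57) at 1% O2 and for Rpl10 (1.44), Rpl13a (4.82), Rps3 (5.60), Rps19 (2.06) and Rps15 (10.5) at <0.1% O2, and those of Rplp0, Rpl3, Rpl22, Rpsa, Rps9 and Rpl32 at 1% O2 and of Rplp0, Rplp1, Rpl3, Rpl38, Rps9, Rps18 and Rpl32 at <0.1% O2 turned negative.

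The fold is the pileup plus 1 divided by the local background plus 1, and the local background of the members was lower in hypoxia. MACS2 reads it from the fragments in a wider window around the peak, the peak itself included. As a multiple of genome coverage, the median local background of the members was 4.93 and 5.72 at 21% O2, 3.72 and 3.30 at 1% O2, then 2.79 and 2.60 at <0.1% O2. Over all protein-coding genes it was 3.78 and 4.33, 4.06 and 3.55, and 3.14 and 2.90. The rank of the local background was lower in 58 members at 1% O2 and in 64 at <0.1% O2, and higher in 0 at either level, where 14.2% and 29.9% of protein-coding genes were called lower and 6.84% and 5.80% higher. The summit pileup over coverage had a median of 49.1 and 64.0 at 21% O2, 48.8 and 45.8 at 1% O2, then 35.0 and 29.5 at <0.1% O2. The normoxic replicates differed by more than the means of 21% and 1% O2 did. At 1% O2 the median log2 ratio of the members was -0.28 (-0.08 without the second normoxic library) and that of all protein-coding genes 0.08. At <0.1% O2 the medians were -0.78 and -0.42. Both <0.1% O2 libraries lay below both normoxic ones in 68 of the 81, beside 62.6% of protein-coding genes, and both 1% O2 libraries did in 37, beside 15.9%. Fewer cells with an open promoter and a smaller opening in each cell cannot be told apart in these bulk libraries. The part of depth, which was higher in every hypoxic library, in these differences was not tested.

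**Figure D2:**
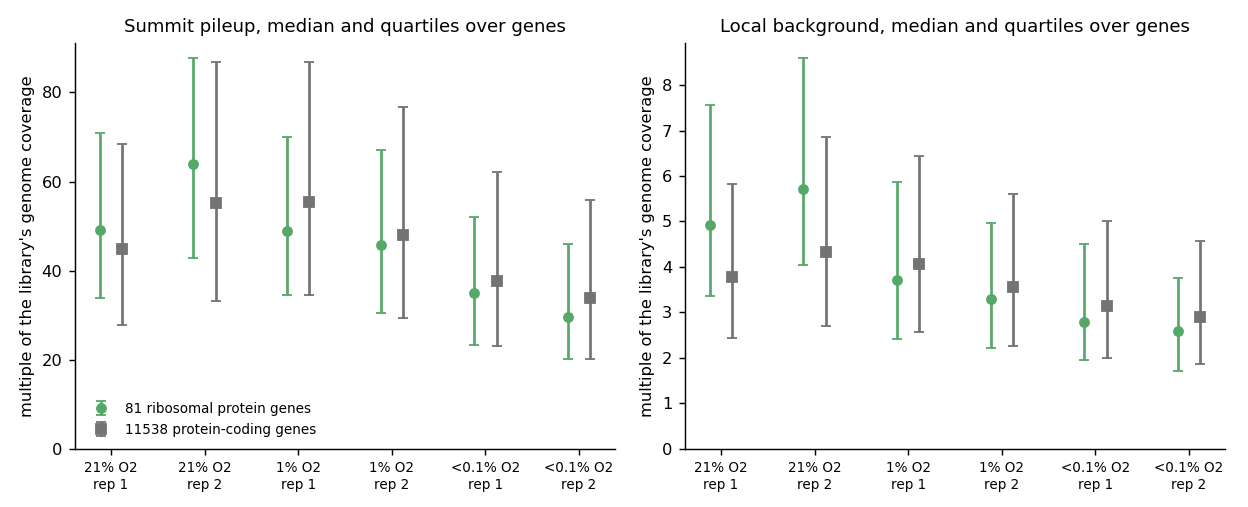
Summit pileup (left) and local background (right) of the promoter peaks, each as a multiple of the genome coverage of its library (y axis), in the 6 libraries (x axis). Circles are medians over 81 ribosomal protein genes and squares over 11538 protein-coding genes, with bars from the lower to the upper quartile. The local background of the ribosomal protein genes started above that of all protein-coding genes, at 4.93 and 5.72, and ended below it, at 2.79 and 2.60.

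A higher fold rank beside a lower pileup rank made up a larger share of the members than of all protein-coding genes. At 1% O2, 57 of the 81 (70.4%) had a higher mean fold rank and a lower mean pileup rank, against 12.3% of protein-coding genes, and at <0.1% O2 42 did (51.9%), against 14.5%. With both changes called, 9 members stood there at 1% O2 (Rpl6, Rpl32, Rpl37a, Rps4x, Rps9, Rps12 and Rpsa among them), of 18 such protein-coding genes in all. At <0.1% O2 there were 7 (Rpl27a, Rpl32, Rpl37a, Rpl38, Rplp1, Rps9 and Rps18), of 38 in all. By contrast, 7 members fell by both measures at <0.1% O2, namely Rpl12, Rpl17, Rpl22l1, Rpl30, Rpl34, Rps20 and Rps27 (8.64%, against 21.3% of protein-coding genes). Another 39 fell in pileup rank alone, 14 rose in fold rank alone and 14 were called by neither, against 13.3%, 6.42% and 44.6% of protein-coding genes. No member rose in pileup rank at either level, although at 1% O2 2 did without the second normoxic library, Rps15 among them (13.3 points).

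**Figure D3:**
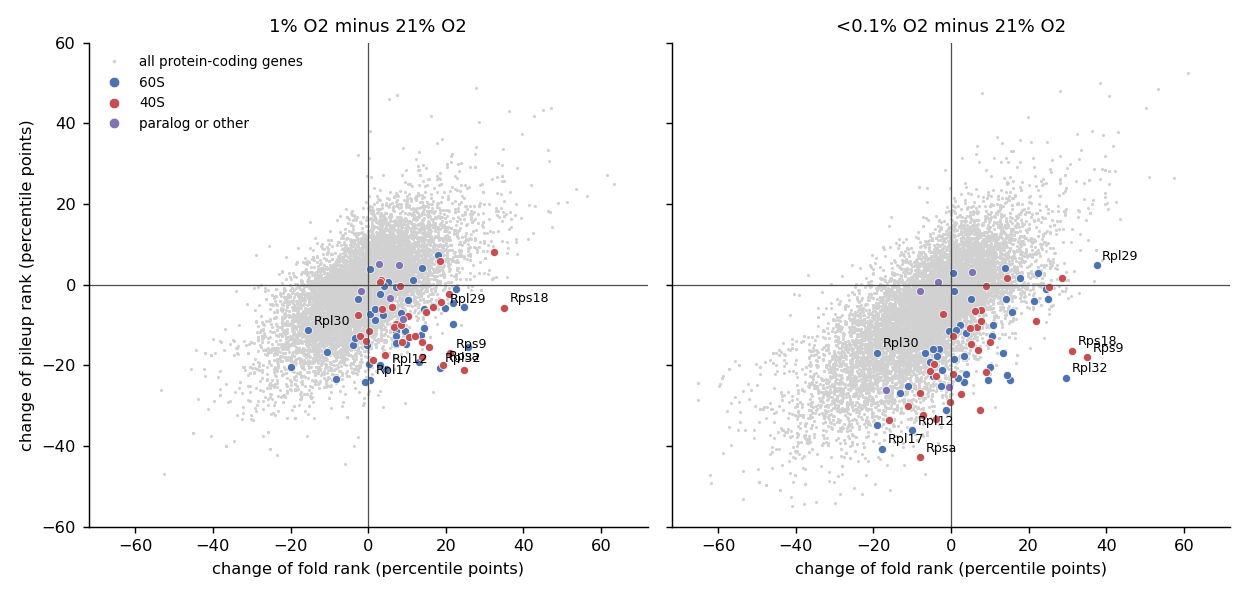
Change of the fold rank (x axis) against change of the pileup rank (y axis), in percentile points, from 21% O2 to 1% O2 (left) and to <0.1% O2 (right). Large points are the 81 members, coloured as 60S, 40S or paralog and other, and small grey points are 11538 protein-coding genes. Most members lie to the right of zero and below it, 57 of 81 at 1% O2 and 42 at <0.1% O2, to the lower right of the grey cloud.

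Among the 45 proteins of the 60S subunit, 30 fell in pileup rank at <0.1% O2 and 23 at 1% O2, against 34.9% and 16.2% of protein-coding genes. In fold rank 15 rose at <0.1% O2 and 14 at 1% O2, against 9.93% and 10.7%, and 4 and 3 fell, against 28.6% and 16.2%. The stalk, which recruits the elongation factors, is built on Rplp0 with Rplp1 and Rplp2. The pileup rank of Rplp2 was 94.3 and 94.8 at 21% O2, 78.5 and 77.4 at 1% O2, then 78.5 and 78.7 at <0.1% O2. It fell by 16.6 points at 1% O2 and by 16.0 at <0.1% O2, 2 nearly equal values. For Rplp1 the pileup ranks were 61.6 and 65.5, 51.5 and 37.2, and 44.6 and 37.7, a called fall at both levels, and its fold rank rose by 14.4 points at <0.1% O2, or 8.87 without the second normoxic library, which is not called. Rplp0 changed by -10.0 points in pileup rank at <0.1% O2, just short of a call (79.1 and 81.6, 74.6 and 74.0, 71.1 and 69.7), although no hypoxic value overlapped the normoxic ones and the call was made without the first normoxic or the first <0.1% O2 library (-10.6 in both cases), and its fold rank rose by 14.5 and 10.7 points, the latter not called without the second <0.1% O2 library (3.58) or the second normoxic one (7.68). Rpl12, which sits at the base of the stalk, had pileup ranks of 56.9 and 54.3, then 29.4 and 40.3, then 20.7 and 18.6, a fall of 36.0 points at <0.1% O2. Its peak also holds the start of Lrsam1, and its fold rank fell by 10.0 points, not called without the first normoxic (-9.45) or the second <0.1% O2 library (-9.48), after correction for GC content (-7.35) or on whole-list ranks (-5.64).

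Rpl5 and Rpl11 join the 5S ribosomal RNA to the 60S subunit and, when not in a ribosome, bind Mdm2 and release p53. Rpl5 gave summits of 103 and 113 fragments at 21% O2, 119 and 113 at 1% O2, then 65 and 64 at <0.1% O2, the last in the deepest libraries. Its pileup rank fell by 34.8 points at <0.1% O2, from 72.7 and 64.1 to 29.5 and 37.7, and by 12.5 at 1% O2 (-7.92 without the first normoxic library, not called). Its fold ranks were 84.9 and 57 at 21% O2 and 46.6 and 57.5 at <0.1% O2, which overlap, so the mean change of -19.0 points was not called. It was called lower without the second normoxic library (-32.5) or the second <0.1% O2 library (-23.9). Rpl11 went from pileup ranks of 49.7 and 54.3 to 32.4 and 30.6 at 1% O2, then 33.1 and 32.8 at <0.1% O2. The 2 partners thus differed in shape, Rpl11 with its whole step at 1% O2 and Rpl5 with most of it at <0.1% O2, a difference that was not tested.

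For several 60S promoters the pileup rank was not called at either level. Rpl10, which joins the subunit last and completes its catalytic centre, had pileup ranks of 96.8 and 95.4, 92.4 and 92.4, and 95.2 and 94.8. Rpl3, near the same centre, went from 93.7 and 95.7 to 91.7 and 86.7 and to 86.8 and 89.0. Rpl13a, which also takes part in silencing inflammatory mRNAs, stood at 93.7 and 95.3, 95.3 and 94.8, and 96.7 and 95.7. Ranks so near the top of the scale cannot rise by 10 points and move little when a tall peak loses height. Over genome coverage, the mean pileup was lower at <0.1% than at 21% O2 in 79 of the 81 members. The same held for 9456 of 11538 protein-coding genes. In fold rank, Rpl10, Rpl3 and Rpl13a rose at <0.1% O2, by 24.5, 15.7 and 17.8 points, Rpl3 not without the first normoxic library (9.65). Their local background over coverage was lower in both <0.1% O2 libraries than in both normoxic ones. For Rpl10 that background was 12.1 and 14.5 times the genome coverage at 21% O2 and 8.57 and 7.34 times at <0.1% O2. Rpl29, with pileup ranks of 55 and 55.6, 50.6 and 48.5, and 61.9 and 58.6, had the largest rise in fold rank of all members at <0.1% O2, 37.5 points, from 43.7 and 49.1 to 90.2 and 77.6.

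Rpl17, Rpl30 and Rpl34 fell by both measures at <0.1% O2. Rpl17, on chromosome 18, had the largest fall in pileup rank of the large subunit, with summits of 121 and 191 fragments at 21% O2, 125 and 118 at 1% O2, then 90 and 63 at <0.1% O2 and a fall of 40.6 points from 79.1 and 84.1 to 45.1 and 36.9. Its fold rank fell by 17.8 points, or by 8.46 without the second <0.1% O2 library, which is not called, nor is its value on whole-list ranks (-12.0). Rpl30 fell by both measures at both levels, with fold ranks of 76.2 and 73.1, 61.9 and 56.5, and 62.6 and 48.8 and pileup ranks of 97.5 and 97.4, 86.8 and 85.7, and 83.7 and 77.7. The summit of its peak (chr15:34442722-34444326) lay upstream of the start, at -534 bp, and the peak also holds the start of D730044K07Rik. Rpl34, whose YY1 letters are printed above, fell in pileup rank from 85 and 86.7 to 71.9 and 77.1 and then 59.6 and 61.9. Its fold rank fell by 11.2 points at <0.1% O2, not called without the first normoxic (-9.26) or the second <0.1% O2 library (-8.28) or on whole-list ranks (-5.79).

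Other genes of this subunit have roles outside it. Rpl22, which binds a viral RNA and tunes splicing of its own paralog, rose in fold rank by 21.9 points at 1% O2 and fell in pileup rank by 20.4 at <0.1% O2. Rpl26, which promotes p53 translation, had fold ranks of 53.5 and 46.4, then 65.7 and 67.3, then 41.2 and 52.7, a rise of 16.6 points at 1% O2 and no call at <0.1% O2, and its pileup rank fell by 15.9 at <0.1% O2. Rpl38, needed for translation of Hox mRNAs, fell in pileup rank from 81.8 and 85.1 to 71.1 and 70.7 and to 68.2 and 73.2. Its fold rank rose by 10.6 points at <0.1% O2, not called without the first normoxic (8.40) or the second <0.1% O2 library (7.94). Rpl32 joined a fold rise of 29.7 points, from 29.9 and 15.5 to 44.6 and 60.3, to a pileup fall of 23.0.

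Among the 31 proteins of the 40S subunit, 21 fell in pileup rank at <0.1% O2 and 15 at 1% O2, against 34.9% and 16.2% of protein-coding genes. In fold rank 6 rose at <0.1% O2 and 14 at 1% O2, against 9.93% and 10.7%, and 2 and 0 fell, against 28.6% and 16.2%. Rpsa, also known as the laminin receptor, showed the largest fall in pileup rank of all members. Its summits held 70 and 109 fragments at 21% O2, 87 and 77 at 1% O2, then 49 and 38 at <0.1% O2, and its pileup ranks were 55.7 and 62.6, 39.8 and 38.4, and 17.7 and 14.9, which made a fall of 42.8 points at <0.1% O2 and a called fall at 1% O2. Over coverage, its pileup was 32.4 and 46.2, 29.7 and 25.7, and 14.6 and 11.9. Its local background reached 1.04 and 1.00 times the genome coverage at <0.1% O2, the second being the lowest value possible, from 2.91 and 3.68 at 21% O2. The fold rank of Rpsa rose by 19.3 points at 1% O2 and was not called at <0.1% O2 (57.4 and 61.4 against 57.6 and 45.4), although without the first normoxic or the first <0.1% O2 library it was called lower there, at -10.2 and -13.8 points.

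Rps20 had pileup ranks of 88.6 and 86.2, 67.0 and 72.7, and 56.1 and 51.4, a fall of 33.6 points at <0.1% O2, and its fold rank fell by 15.9 (-9.62 without the first normoxic library and -8.97 on whole-list ranks, neither called). Rps6, the protein phosphorylated by the S6 kinases downstream of mTORC1, had summits of 56 and 98 fragments, then 74 and 73, then 64 and 31. Its pileup rank fell by 33.3 points at <0.1% O2, but the 2 libraries there were far apart, at 28.9 and 8.60, and in fold rank still more, at 77.5 and 28.9. Without the second of them the fold rank of Rps6 was called higher, by 20.2 points, and without the first it was called lower, by -27.9. Rps14, on chromosome 18 and lost in the 5q- syndrome of human marrow, fell in pileup rank by 10.5 and 10.4 points at the 2 levels. With the strongest peak near the gene in place of the nearest, the changes were 8.84 and 9.36 points, neither called. With that peak the fold rank of Rps14 at <0.1% O2, otherwise not called, was called higher, at 26.0 points. Leaving out the first normoxic library ended both pileup calls (-9.02 and -8.96), as did leaving out the first 1% O2 library (-8.72) or the second <0.1% O2 library (-9.90) for the level concerned.

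Rps3, which lines the mRNA entry channel and also acts in DNA repair, was not called by pileup (ranks of 62.7 and 72.4, 61.3 and 65.2, and 64.1 and 70.0) and rose in fold rank by 18.8 points at 1% O2 and 25.2 at <0.1% O2. Rps19, the gene most often mutated in Diamond-Blackfan anaemia, had pileup ranks of 97.3 and 95.8, 97.3 and 97.2, and 98.2 and 98.1. These too lie near the top of the scale. The fold rank of Rps19 rose by 14.4 points at <0.1% O2, or 1.96 without the second normoxic library, which is not called. Rps27a, made as a fusion with ubiquitin, was called by neither measure, with pileup ranks of 91.9 and 90.8, 85.3 and 86.4, and 84.2 and 85.4, although its fold rank was called higher at 1% O2 without the first library there (10.1 points).

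The largest rises in fold rank at <0.1% O2 in this subunit were at Rps9 (35.0 points), Rps18 (31.3) and Rps15 (28.7). Rps9 went from fold ranks of 40.6 and 39.9 to 56.1 and 66.5 and then 77.1 and 73.4, and its pileup rank fell by 17.9 points from 59.9 and 65.5 to 47.9 and 41.8. Rps18 went from fold ranks of 29.3 and 32.9 to 75.1 and 57.2 and then 60.7 and 64.3, with a fall of 16.4 points in pileup rank at <0.1% O2. Its local background was 3.72 and 4.22 times the genome coverage at 21% O2, 2.25 and 2.22 at 1% O2, then 1.62 and 1.56 at <0.1% O2. The peak of Rps18 also holds the start of Vps52, so the accessibility of the 2 starts cannot be told apart. Rps15 was not called by pileup (48.3 and 59.4, 59.1 and 64.8, 51.4 and 59.5), although at 1% O2 it was called higher without the second normoxic (13.3 points) or the first 1% O2 library (10.9) and on whole-list ranks (12.6).

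**Figure D4:**
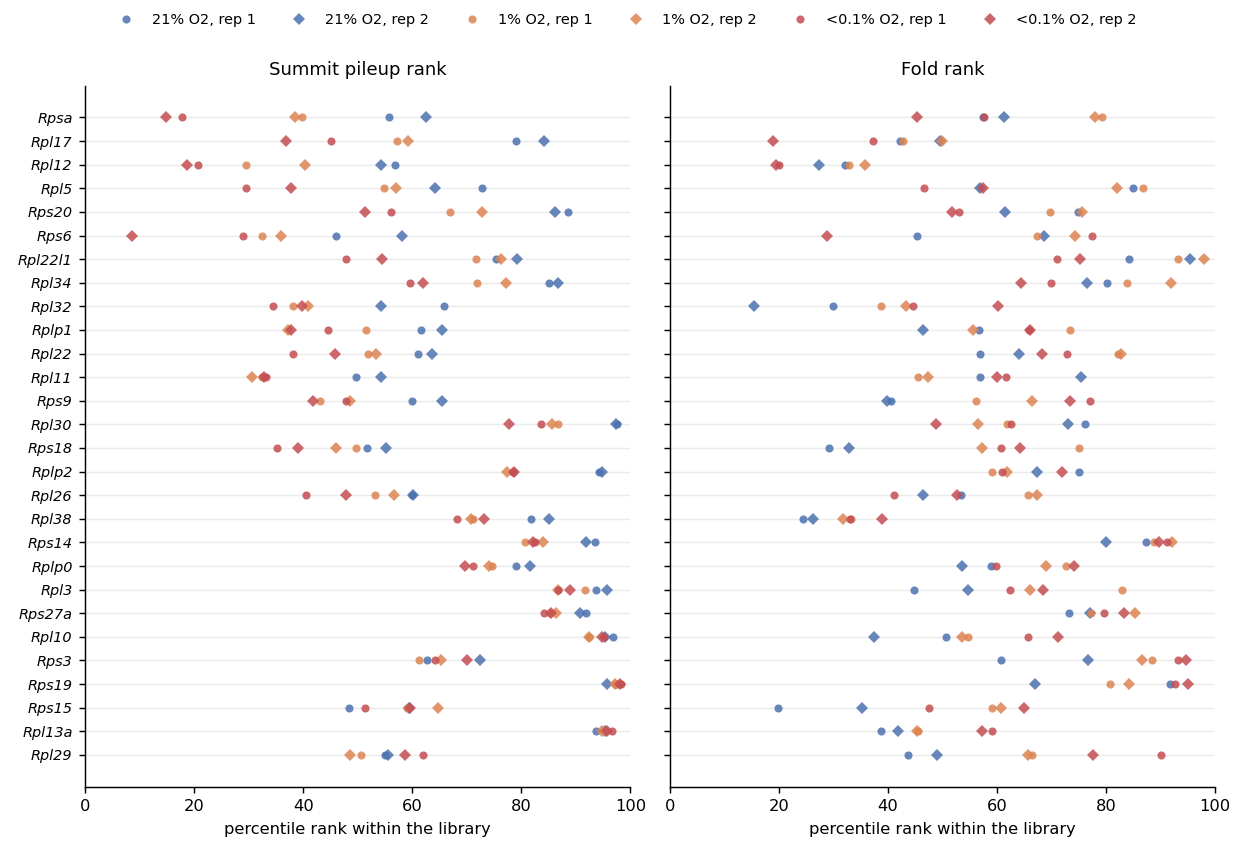
Percentile rank (x axis) by summit pileup on the left and by fold enrichment on the right for the 28 named members with a ranked peak (y axis), ordered from the largest fall in pileup rank at <0.1% O2 at the top. Each row has 6 points, 1 per library, with colours for the oxygen level and circles and diamonds for replicates 1 and 2. At the top, Rpsa runs from 55.7 and 62.6 at 21% O2 to 17.7 and 14.9 at <0.1% O2 by pileup, and at the bottom Rpl29 rises from 43.7 and 49.1 to 90.2 and 77.6 by fold.

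Of the 5 ranked paralogs and others, 2 fell in pileup rank and 1 in fold rank at <0.1% O2, and 0 rose in either. Of all protein-coding genes, 34.9% fell and 6.82% rose in pileup rank, and 28.6% fell and 9.93% rose in fold rank. With only 5 genes, these counts cannot set the group apart from protein-coding genes. Rpl22l1, the paralog that Rpl22 represses, had pileup ranks of 75.3 and 79.2, 71.6 and 76.2, and 47.9 and 54.4, a fall of 26.1 points at <0.1% O2, while the change of -3.34 at 1% O2 was not called. From 1% to <0.1% O2 it fell by 22.8 points, the same size as for Rpsa and the largest fall among the members in that comparison. Its fold rank fell by 16.8 points at <0.1% O2. Rpl36al, a retrogene copy of Rpl36a, fell in pileup rank by 25.4 points. Rpl7l1, Rps27l and Rps19bp1 were called by neither measure against normoxia. Reads of near-identical copies are a limit for such paralogs, although the alignments kept only confidently placed reads.

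Further groups of members were described by disease, small nucleolar RNAs and promoter letters. Of 17 genes mutated in Diamond-Blackfan anaemia, 10 fell in pileup rank at <0.1% O2 (58.8%, median -15.9 points) and 0 rose, against 65.4% of all members and 34.9% and 6.82% of protein-coding genes. In fold rank 3 rose and 1 fell, against 9.93% and 28.6%. The 29 members that host small nucleolar RNAs had a median pileup change of -16.9 points and the 52 others -16.3, with 19 (65.5%) and 34 (65.4%) called lower, beside 34.9% of protein-coding genes. The 15 members with a pyrimidine run of at least 5 at the RefSeq start had a median pileup change of -16.0 points at <0.1% O2 and the 46 with a shorter run -17.8, and at 1% O2 -12.6 and -9.18. For the fold rank these medians were 7.66 and 1.62 at <0.1% O2 and, in the other order of size, 7.25 and 8.19 at 1% O2. The 24 members with ETS letters had a median pileup change of -16.6 and a fold rank change of -0.385 at <0.1% O2, and the 37 without -17.6 and 7.08. At 1% O2 these medians were -10.3 and 5.51 with the letters and -8.71 and 9.73 without. For the 10 members with YY1 letters in either form they were -12.4 and 5.04 at <0.1% O2, and for the 51 without -17.7 and 2.43. At 1% O2 they were -11.4 and 7.93 with YY1 letters and -8.71 and 7.96 without. No test was made of these differences.

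Other genes of the same pathway were read from lists. Fau and Rack1, ribosomal proteins under other names, both fell in pileup rank at <0.1% O2 (-17.7 and -24.3 points), and neither was called by fold rank. Of 16 translation factors and related genes with TOP mRNAs, 6 fell in pileup rank at <0.1% O2 and 0 rose, with a median of -7.04 points, a share lower (37.5%) near the 34.9% of protein-coding genes. In fold rank 3 fell and 3 rose, against 28.6% and 9.93%. Btf3, part of the nascent-chain complex, fell by 35.1 points in pileup rank and 31.7 in fold rank, while Eef1a1, which brings aminoacyl-tRNA to the ribosome, rose by 26.2 points in fold rank and had a pileup change of -5.07. Of 20 nucleolar assembly genes, 10 fell in pileup rank and 0 rose (median -12.0), against 34.9% and 6.82% of protein-coding genes, and 7 fell and 4 rose in fold rank, against 28.6% and 9.93%.

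The genes of the mitochondrial ribosome, which is built apart from the cytosolic one, were the nearest comparison, with 76 of 78 ranked. In pileup rank 16 fell and 5 rose at 1% O2 and 38 fell and 3 rose at <0.1% O2, with medians of -5.07 and -12.0 points, against 16.2% lower and 10.1% higher, and 34.9% and 6.82%, of protein-coding genes. In fold rank 10 fell and 2 rose at 1% O2, and 31 fell and 3 rose at <0.1% O2 (medians -1.13 and -7.59), against 16.2% and 10.7%, and 28.6% and 9.93%, so that the share lower at 1% O2 (13.2%) was below that of all protein-coding genes. Their local background was 2.94 and 3.29 times the genome coverage at 21% O2 and 2.38 and 2.25 at <0.1% O2, lower at the outset than the 4.93 and 5.72 of the cytosolic genes. The cytosolic and mitochondrial genes thus had medians of the same sign by pileup and of opposite sign by fold, a difference that was not tested.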

How the data were processed

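ATACseq libraries of fixed GL261 cells, 2 per oxygen level, were trimmed (Trimmomatic), aligned to mm10 (Bowtie2 2.2.5), cleared of duplicates, mitochondrial and low-quality reads, and called singly with MACS2 2.1.1.2 at a q-value of 0.001 by the authors, who removed blacklisted peaks. The deposited fold is a ratio over local background, and the authors gave -log10 p-values and -log10 q-values beside it. The DESeq2 test that the authors ran on read counts needs data not used here. Tool versions come from the submitters' processing notes and the study's methods.

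From the fold and -log10 p, whole-number summit pileups and backgrounds were recovered for 100% of peaks (relative tolerance 0.001), and genome coverage was taken as the lowest background in a library. Overlaps of over 200 bp between replicates were merged over conditions into 41308 consensus peaks, each given the highest value of its peaks in a library. Start sites came from GENCODE M21 and GC content from GRCm38.p6, within whose lengths all peaks lay. Pileups count fragments, and their counting error is not in the ranks. The members and lists were chosen with earlier results of these data known. Named genes were fixed by role, plus the 5 largest called falls and rises at <0.1% O2 by each rank and every member not ranked. Taking the peak nearest a start, with the strongest peak as an alternative, was chosen after seeing the data. Rps27 and the other genes named in lists of calls were chosen after their values were seen. Some single genes are not reported here. Scripts were tested on simulated data. Alternatives covered overlap, peak threshold, ranked set and value, window, size of change, each library left out, a replicate block and GC content. Ranks were computed with pandas 2.3.3 and numpy 2.4.6, Poisson tails with scipy 1.17.1 and GC content with pysam 0.24.0, under Python 3.11.15.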

Additional observations from a re-analysis of the deposited data

Results flagged for a closer look

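For 3 named members the 2 levels of hypoxia lay on opposite sides of normoxia, with both 1% O2 libraries on the one side of both normoxic libraries and both <0.1% O2 libraries on the other. The fold rank of Rpl12 changed by 4.58 points at 1% O2 and by -10.0 at <0.1% O2, and that of Rpl34 by 9.48 and -11.2. The pileup rank of Rpl29 changed by -5.79 and 4.91 points. The differences between the levels were not tested, and of these 6 changes only the falls of Rpl12 and Rpl34 at <0.1% O2 were called.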

How the results depend on the processing

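Most counts kept their size, and most changes of named genes kept their call. Of the recomputed counts of called members, 159 stayed within 1.5 times and 29 did not. Of the recomputed changes of named genes, 1490 kept their call or stayed uncalled, 58 lost the call, 53 gained it and 23 reversed. For changes that stayed uncalled, the sign was not compared. Counts are given as lower and higher. Leaving out 1 library at a time, the fold rank gave 3 to 5 lower and 28 to 38 higher at 1% O2, 6 to 12 and 20 to 26 at <0.1% O2, and 20 to 29 and 9 to 12 between the hypoxic levels, and the pileup rank 35 to 39 and 0 to 2, 52 to 54 and 0 to 0, and 25 to 28 and 0 to 1. The 12 lower by fold at <0.1% O2 came without the first <0.1% O2 library. The median log2 pileup ratio ran from -0.39 to -0.08 at 1% O2. A change of at least 20 points left 0 and 10 (4.09% and 2.90% of protein-coding genes), 0 and 11 (13.5% and 2.54%), and 5 and 0 (7.92% and 0.867%) by fold, and 8 and 0 (3.30% and 1.56%), 32 and 0 (14.8% and 1.27%), and 3 and 0 (3.68% and 0.147%) by pileup. Ranks in the whole peak list gave 1 and 40 (6.0% and 17.5%), 2 and 27 (18.6% and 13.7%), and 17 and 6 (21.6% and 3.99%) by fold, and by pileup 7 and 1 at 1% O2 (3.26% and 18.4%) and 18 and 0 between the levels (19.5% and 0.650%). The GC correction left 13 lower by pileup between the levels, as did the replicate block with it. Scaling to the median pileup of the ranked peaks gave -0.23 in place of -0.56 between the levels.

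Ranking -log10 q in place of fold gave 22 lower and 2 higher at 1% O2, 44 and 1 at <0.1% O2, and 26 and 2 between the levels (26.2% and 2.02% of protein-coding genes), and reversed the medians to -5.76 and -11.6. The -log10 q grows with the pileup as well as the fold. At 1% O2 it reversed Rplp0 (-1.57), Rplp1 (-12.3), Rpl3 (-2.19), Rpl10 (-2.57), Rpl22 (-2.30), Rpsa (-11.5), Rps6 (-10.8), Rps20 (-13.7), Rpl17 (-19.2), Rps9 (-7.76), Rpl32 (-9.13) and Rpl12 (-14.9). At <0.1% O2 it reversed Rplp0 (-5.85), Rplp1 (-14.2), Rpl3 (-4.72), Rpl22 (-13.5), Rpl38 (-7.97), Rps9 (-4.88), Rps18 (-3.87) and Rpl32 (-7.85). It also ended, without reversing them, the rises at 1% O2 of Rpl26 (0.339), Rps3 (1.19), Rpl29 (0.809) and Rps18 (5.57) and at <0.1% O2 of Rpl10 (1.44), Rpl13a (4.82), Rps3 (5.60), Rps19 (2.06) and Rps15 (10.5). The change in fold rank of Rps6 at <0.1% O2 became 20.2 without the second <0.1% O2 library and -27.9 without the first. With the strongest peak, the pileup rank changes of Rps14 became 8.84 and 9.36, and its fold rank change at <0.1% O2 became 26.0, called higher.

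With the replicate number as a block (replicate block), the counts were 3 and 31, 7 and 21, and 23 and 11 by fold and 38 and 0, 54 and 0, and 29 and 1 by pileup. Same-numbered libraries showed no shared deviation in rank, with correlations over the ranked peaks of -0.05 to 0.03. Ranks carry no library-wide shift, so this cannot show whether same-numbered samples were prepared together. The cause of these shifts was not tested. An exact permutation test of 2 libraries against 2 cannot give a p under 0.33, and peaks under the calling threshold, as Rpl13 in 1 library, carry no value.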
